A study of Mus musculus with 2 samples.

Results

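The 9 genes Hspa5, Hsp90b1, Hyou1, Calr, Canx, P4hb, Pdia3, Pdia4 and Pdia6 encode the main chaperones and folding enzymes of the endoplasmic reticulum. They were taken by gene name from the deposited table of each library, with every transcript model of the gene included, and all 9 were found, of 15848 annotated genes with a read. The tissue was the whole heart of female mice of the strain B6CASTF1/J, an F1 hybrid of C57BL/6 and CAST/EiJ, at 2 months of age, with no treatment, deletion or transgene in the labels. The study held 1 group of 2 libraries of long-read RNA sequencing, each made from 2 µg of total RNA with spike-ins, so no condition could be compared. The sample labels number the animals 3 and 4, while the library text gives animal 3 for both and the labels share 1 donor identifier. The labels also number the libraries biological replicates 1 and 2, each with technical replicate number 1. Whether the replicates are separate animals is thus not settled. The spread between the libraries may be technical, and each p-value compares these libraries and not conditions.

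Proteins bound for secretion or for membranes enter the endoplasmic reticulum unfolded. Hsp70- and Hsp90-type chaperones hold them there, the lectins calreticulin and calnexin bind their sugars, and protein disulfide isomerases form and reshuffle their disulfide bonds. When folding fails, the unfolded protein response raises the transcription of these genes, and in heart muscle the same membrane network is the calcium store for contraction.

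The coding sequences of 8 of the 9 genes end in codons for a retention signal of the KDEL type, which returns lumenal proteins to the endoplasmic reticulum. The last codons of the leading annotated model of each gene are shown because this shared end was not used to choose the genes. They were read from the GENCODE M21 transcripts (mm10), 5′ to 3′ on the coding strand, with the last 4 codons in capitals and the stop codon in lower case.
Hspa5: AAAGATGAGTTGtag
Hsp90b1: AAGGATGAATTGtaa
Hyou1: AACGATGAACTAtaa
Calr: AAGGATGAGCTGtag
Canx: CCACGAAGAGAGtga
P4hb: AAGGATGAACTGtag
Pdia3: CAAGAGGACCTCtaa
Pdia4: AAGGAAGAGCTTtaa
Pdia6: AAGGATGAGTTGtga
In 5 genes (Hspa5, Hsp90b1, Calr, P4hb and Pdia6) the codons give the KDEL signal itself, through different synonymous codons, and in Hyou1, Pdia3 and Pdia4 they give a variant of it. Canx, whose protein is anchored in the membrane, ends otherwise. The Cys-Gly-His-Cys active site of the disulfide isomerases was encoded 2 times in P4hb, Pdia3 and Pdia6 and 3 times in Pdia4, and in none of the other members.

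The start regions of 5 members hold a sequence in common. The endoplasmic reticulum stress element (ERSE), bound by factors of the unfolded protein response, reads CCAAT, 9 free bases and CCACG. Windows from 250 bases before to 50 bases after the gene start were taken from RefSeq (GRCm38.p6, which is mm10) for the 8 members with an entry, Hyou1 having none. On either strand, the exact element stood in 5 of the 8 member windows and in 39 of all 32851 windows, or 0.119%. The element was chosen because it is bound by factors that raise these genes, so the shares are a description and not a test. The matches are shown in the direction of the element, with the fixed parts in capitals.
Hspa5, chr2:34772025-34772043, strand of the gene: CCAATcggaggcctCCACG
Hsp90b1, chr10:86705638-86705656, strand of the gene: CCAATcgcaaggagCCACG
Hsp90b1, chr10:86705533-86705551, opposite strand: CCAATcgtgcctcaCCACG
Calr, chr8:84847075-84847093, opposite strand: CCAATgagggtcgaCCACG
Canx, chr11:50325800-50325818, strand of the gene: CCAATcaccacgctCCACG
Pdia6, chr12:17266491-17266509, strand of the gene: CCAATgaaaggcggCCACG
The matches ended between 46 bases (Hspa5) and 193 bases (the farther match of Hsp90b1) before the RefSeq start. The Hspa5 match lies within the annotated first exon of Hspa5-201 and upstream of the start of Hspa5-202. Windows of P4hb, Pdia3 and Pdia4 held no exact match. The CCAAT box alone was found in 8 of 8 member windows and in 37.4% of all windows, and the letters CCACG alone in 7 of 8 and in 32.8%. The related ERSE-II (ATTGG, 1 free base, CCACG) was found in none of the member windows and in 0.0365% of all windows.

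Hsp90b1 was the member with 2 matches, and the stretch that holds both is printed along the minus strand (chr10:86705510-86705694, GRCm38.p6). It ends at the base before the start of the annotated model in GENCODE. The distances above were taken from the RefSeq start, which lies farther downstream. Capitals mark both elements, of which the second is read on the other strand.
Hsp90b1 upstream: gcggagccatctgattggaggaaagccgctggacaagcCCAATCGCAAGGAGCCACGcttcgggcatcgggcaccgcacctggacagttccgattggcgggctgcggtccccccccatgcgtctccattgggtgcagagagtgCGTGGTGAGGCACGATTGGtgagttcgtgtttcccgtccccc
These matches are descriptions of the letters in the windows, and factor binding was not measured here.

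Replicate 1 held 859191 reads and replicate 2 held 707758 reads on annotated genes, after the spike-ins were left out, so that 1 read stood for 1.16 and 1.41 CPM (reads in 1000000 reads on annotated genes). The 9 genes together took 2440 reads in replicate 1 and 1637 in replicate 2, or 0.284% (95% Wilson interval 0.273 to 0.295%) and 0.231% (0.220 to 0.243%) of these reads. Their summed level was 2576 ± 373 CPM (SD, n = 2). Intervals cover counting error only. Of the markers that check the label, the summed level of the cardiomyocyte list was 36896 CPM in replicate 1 and 40689 in replicate 2. That of the fibroblast list was 1518 and 1478, of the endothelial list 289 and 298, of the smooth muscle and pericyte list 505 and 511, and of the macrophage list 161 and 134. The red blood cell list stood at 31814 and 29122 CPM and the mesothelial list at 44.2 and 57.9. The plasma and B cell list, of which plasma cells are rich in these chaperones, stood at 3.49 and 1.41 CPM. In it, Jchain had 0 reads in both libraries, which allows up to 3.49 and 4.24 CPM. In whole tissue, fewer cells of a type and less RNA per cell cannot be told apart.

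Hspa5 led all other members on both scales of level. Each long read stands for a single cDNA molecule, so CPM was not divided by length. Whether copies of a molecule were read more than once was not tested. CPM per kb of the mean model length was added to compare genes per length. This length is that of the models and not of the reads. An unannotated model of Pdia3 with 13 exons had 1956 bases, against 2770 for Pdia3-201, also with 13. The values per kb thus rest on annotated ends that the reads may not reach. Per kb, Hspa5 reached 453 in replicate 1 and 341 in replicate 2, and P4hb followed at 131 and 114, Hsp90b1 at 119 and 98.1 and Pdia6 at 86.9 and 78.6. Pdia3 (56.8 and 52.5), Canx (48.5 and 49.1), Calr (37.5 and 30.4) and Pdia4 (36.5 and 27.8) came next, and Hyou1 was last at 15.5 in both. Of the 8 pairs of neighbours in this order, 2 had overlapping ranges, P4hb with Hsp90b1 and Calr with Pdia4. On the CPM scale the order was Hspa5, P4hb, Hsp90b1, Pdia6, Canx, Pdia3, Pdia4, Calr and Hyou1. With annotated models only, Hsp90b1 stood at place 5, at a mean of 137.4 CPM against 223 CPM with all models, after Pdia6 (170.6 CPM) and Canx (137.5 CPM). With all models the ranges of Pdia6 and Canx, of Pdia4 and Calr, and of Calr and Hyou1 overlapped, so that these neighbours do not differ beyond the spread of the libraries.

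**Figure D1:**
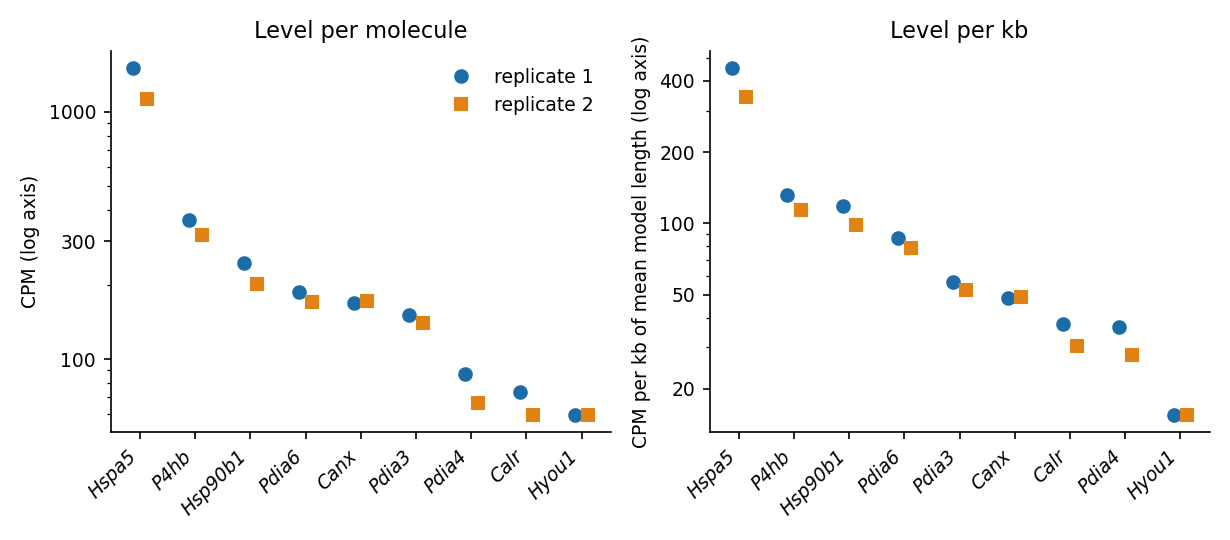
Level of the 9 genes in replicate 1 (circles) and replicate 2 (squares), in CPM (left) and in CPM per kb of the mean model length (right), each on a log axis and in its own order. Hspa5 stands at 1503 and 1129 CPM, above the 365 and 316 CPM of P4hb, and Hyou1 is last at 59.4 and 59.3 CPM.

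Hspa5 encodes BiP, the Hsp70-type chaperone that also holds the stress sensors of the endoplasmic reticulum inactive (chr2:34771970-34777547, plus strand, mm10). It had 1291 reads in replicate 1 and 799 in replicate 2, or 1503 and 1129 CPM, which averaged 1316 ± 264 CPM (SD, n = 2). Replicate 1 was the higher, and this was the widest gap in CPM among the 9 genes. The gene took 52.9% of the chaperone reads in replicate 1 and 48.8% in replicate 2, and ranked at place 99 among the 15848 genes by mean CPM. The protein-coding genes nearest to it in level over the 2 libraries, by distance of log2(CPM + 1), were Ndufb7 (distance 0.11), Ndufa13 (0.12) and Cox5b (0.12), which encode subunits of the respiratory chain.

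Hsp90b1 encodes GRP94, the Hsp90-type chaperone of the compartment (chr10:86690209-86705509, minus strand). It had 210 reads in replicate 1 and 143 in replicate 2, or 244 and 202 CPM. Hyou1 encodes GRP170, a large Hsp70 relative that serves as nucleotide exchange factor for BiP (chr9:44379490-44392369, plus strand). It had 51 reads in replicate 1 and 42 in replicate 2, or 59.4 and 59.3 CPM, the smallest spread of the members. At these counts the ratio of replicate 1 to replicate 2, 1.00, had a wide exact 95% interval of 0.65 to 1.54. Of the reads of Hyou1 and Hspa5 together, Hyou1 took 3.80% (95% Wilson interval 2.90 to 4.96%) in replicate 1 and 4.99% (3.72 to 6.68%) in replicate 2. The genes nearest to Hyou1 in level were Cmtr1 (distance 0), Rnf5 and Prep (0.028 each). Cmtr1, a cap methyltransferase, had the same read counts.

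Of the lectin chaperones, the membrane-bound one was the more abundant. Canx, which encodes calnexin (chr11:50293961-50325673, minus strand), had 145 reads in replicate 1 and 121 in replicate 2, or 169 and 171 CPM. Calr, which encodes calreticulin, a lumenal lectin that also binds calcium (chr8:84841850-84846934, minus strand), had 63 and 42 reads, or 73.3 and 59.3 CPM. Calr thus took 30.3% (24.4 to 36.8%) of the reads of both lectins in replicate 1 and 25.8% (19.7 to 33.0%) in replicate 2. Per kb the pair stood closer, with 37.5 and 30.4 for Calr and 48.5 and 49.1 for Canx, and their ranges did not overlap.

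The 4 disulfide isomerases among the members together stood at 742 ± 70.1 CPM (SD, n = 2), with 680 reads in replicate 1 and 490 in replicate 2. P4hb, which encodes protein disulfide isomerase itself and the beta subunit of collagen prolyl 4-hydroxylase (chr11:120560298-120573253, minus strand), had 314 reads in replicate 1 and 224 in replicate 2, or 365 and 316 CPM. Pdia6 (chr12:17266545-17284770, plus strand) had 161 and 120 reads, or 187 and 170 CPM. Pdia3 encodes ERp57, the isomerase that works with calreticulin and calnexin (chr2:121413775-121438687, plus strand). It had 130 reads in replicate 1 and 99 in replicate 2, or 151 and 140 CPM. Pdia4, which encodes ERp72 (chr6:47796141-47813430, minus strand), had 75 and 47 reads, or 87.3 and 66.4 CPM. Among these 4 genes P4hb was highest and Pdia4 lowest in both libraries, and their ranges did not overlap, in CPM or in CPM per kb. Pdia5, a relative that is not a member, was lower, at 8.15 CPM in replicate 1 and 5.65 in replicate 2.

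None of the 9 genes passed the call between the libraries, an adjusted p below 0.05 (two-sided exact binomial test of each gene's reads against the library totals, Benjamini-Hochberg adjustment over 9334 genes) and at least a 2-fold difference. That call took 0.321% of the genes tested. Without the fold minimum 1 member, Hspa5, passed, which was higher in replicate 1, as 0.75% of genes were, while 0.396% were lower in it. The ratio of Hspa5 was 1.33 (exact 95% interval 1.22 to 1.46), a log2 ratio of 0.41 with an adjusted p of 7.03e-08. The test covers counting error only. With a preset variation of 0.1 between libraries in edgeR's exact test, the adjusted p of Hspa5 was 1. Hspa5 was also the only member with an unadjusted p below 0.05, as 8.53% of the genes tested had.

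The ratios of replicate 1 to replicate 2 of the other members lay between 0.99 for Canx (0.77 to 1.27) and 1.31 for Pdia4 (0.90 to 1.94), and every one of these intervals included 1. Hsp90b1 stood at 1.21 (0.97 to 1.51), Calr at 1.24 (0.82 to 1.87) and P4hb at 1.15 (0.97 to 1.38). Of the 9 genes, 7 had a log2 ratio above 0, as did 44.9% of the genes tested, and the sign of the log2 ratio of Canx and Hyou1 turned with the scaling. The median log2 ratio of the members was 0.21, against -0.05 over all genes tested. Without Hspa5, the other 8 members summed to 1337 CPM in replicate 1 and 1184 CPM in replicate 2.

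**Figure D2:**
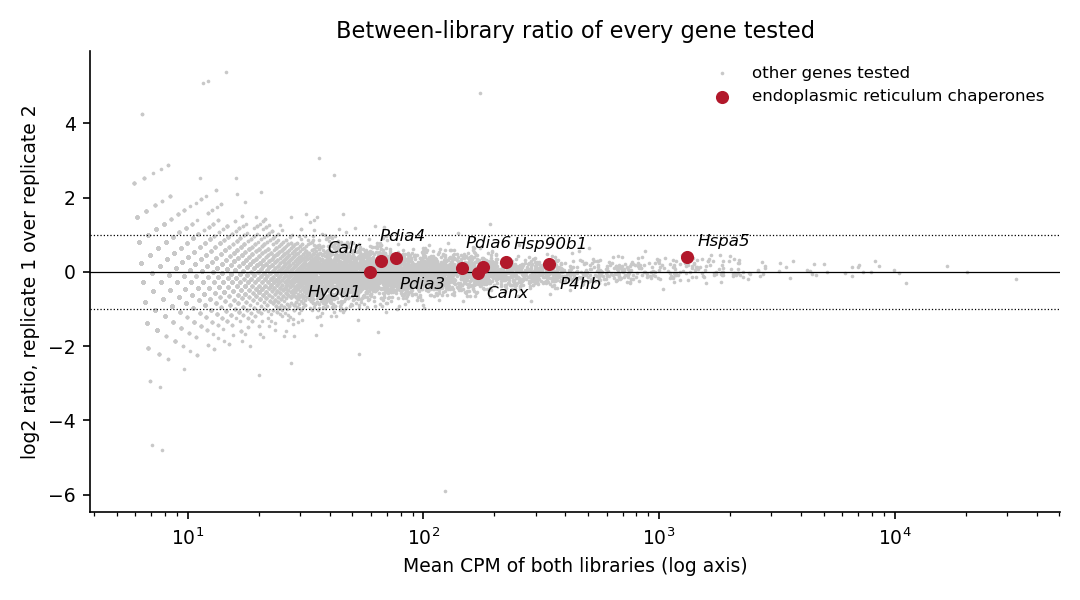
Log2 ratio of replicate 1 over replicate 2 against the mean CPM (log axis) of each gene tested (grey) and of the 9 chaperone genes (red, named). Dotted lines mark a 2-fold difference in either direction. The members lie between -0.02 (Canx) and 0.41 (Hspa5), inside the dotted lines.

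Each read was assigned by the authors to an annotated model or to a class of unannotated model. An incomplete match (ISM) follows the splicing of an annotated transcript but lacks exons at an end, a NIC model joins annotated splice sites in a new way, and an NNC model has a splice site that is not annotated. The genomic models of these genes were all single exons. Of the reads of the 9 genes, 2208 (90.5%) in replicate 1 and 1456 (88.9%) in replicate 2 were on annotated models, compared with 76.0% and 75.7% of the reads of all annotated genes. Without Hspa5 the shares of the other members were 85.9% and 84.1%. NIC models held 0.164% and 0.550% of the reads of the members, compared with 4.90% and 5.46% over all annotated genes. These shares are descriptions, since a few abundant genes set the total.

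Pdia4 had the highest share on annotated models in both libraries, with 74 of 75 reads in replicate 1 and 45 of 47 in replicate 2. The shares were 96.9% and 94.2% for Pdia6, 94.9% and 93.3% for P4hb, 94.6% and 94.0% for Hspa5, and 93.1% and 90.9% for Pdia3. Canx (83.4% and 78.5%), Calr (76.2% and 85.7%) and Hyou1 (80.4% and 66.7%) lay lower, and Hsp90b1 was lowest in both libraries with 61.0% (95% Wilson interval 54.2 to 67.3%) and 62.2% (54.1 to 69.8%). Across the 4651 genes with 20 or more reads in both tables the median was 82.6% in either replicate. No member passed the test of this share between the libraries (Fisher's exact test with Benjamini-Hochberg adjustment, adjusted p of 1 for each), and 0.129% of the genes tested passed.

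**Figure D3:**
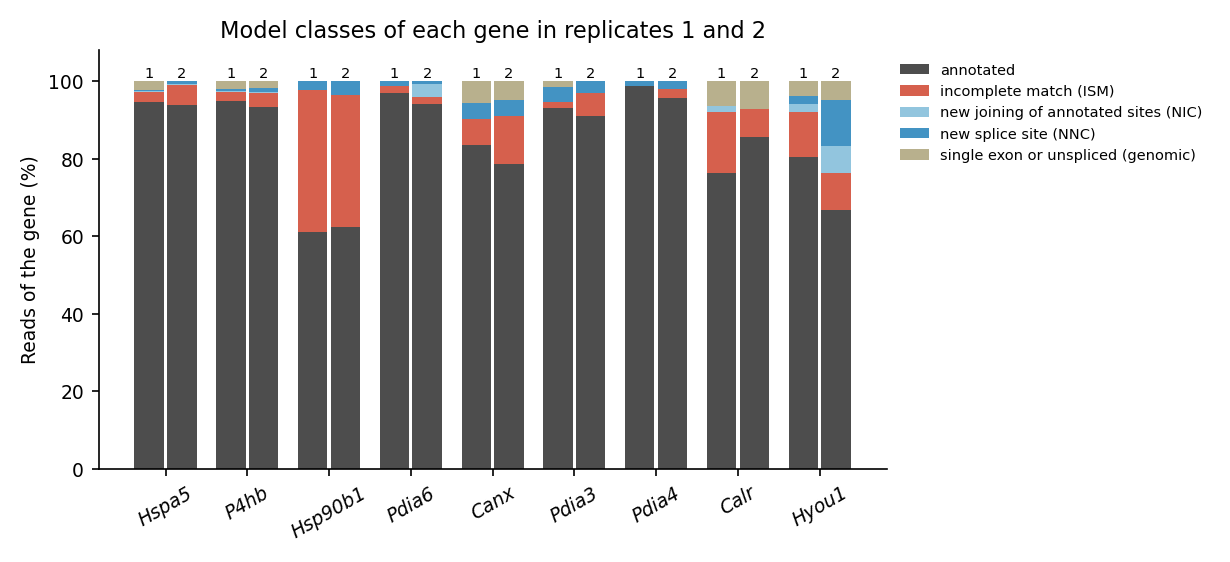
Share of the reads of each gene (percent) by class of transcript model, with replicate 1 as the left bar and replicate 2 as the right bar of each pair. Hsp90b1 has 36.7% and 34.3% of its reads on incomplete matches, and Pdia4 has 0% and 2.13%.

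The reads that Hsp90b1 lacked on its annotated model were mostly a single short 3′ fragment. Its full-length model Hsp90b1-201, of 18 exons and 2825 bases, had 128 reads in replicate 1 and 89 in replicate 2. A model of the last 2 exons, 409 bases long (chr10:86690840-86691748), had 59 and 30 reads, which made 28.1% (95% Wilson interval 22.5 to 34.5%) and 20.98% (15.1 to 28.4%) of the reads of the gene. It holds the last 48 of the 802 codons, including the retention signal printed above, and the whole annotated 3′ untranslated region of that model. Models of 10 exons (6 and 3 reads), 7 exons (3 and 1), 17 exons (3 and 3) and 1 exon (2 and 6) were far rarer, so the lengths did not fall off evenly. In replicate 1, 1 of the 3 reads at 17 exons lay on a model of 3325 bases that keeps the annotated start. All incomplete matches together made 36.7% in replicate 1 and 34.3% in replicate 2, compared with a median of 4.35% in both libraries over the 4651 genes. Of these genes, 94.0% had a lower mean share than Hsp90b1. The ends given are those of the models and not of single reads. Whether the fragment is a separate transcript or a piece of a longer one was not tested.

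Hspa5 had 2 annotated models in main use, beside Hspa5-203 with 2 reads in replicate 1 and 1 in replicate 2. Hspa5-201 has 9 exons, and Hspa5-202 has 8, since it keeps the first intron of 82 bases (chr2:34772147-34772228), which lies in the 5′ untranslated region before the start codon at base 34772322. Hspa5-201 had 935 reads in replicate 1 and 562 in replicate 2, and Hspa5-202 had 284 and 188. Over all models that cross the intron, it was kept in 286 of 1226 reads in replicate 1 and in 189 of 755 in replicate 2. The kept share was 23.3% (95% Wilson interval 21.05 to 25.8%) and 25.0% (22.1 to 28.2%), or 24.2 ± 1.21% (SD, n = 2). The use of Hspa5-201 among annotated models, 76.6% and 74.8%, did not pass the test between the libraries (Fisher's exact test, adjusted p of 1 over 1037 genes, of which 0.0964% were called). Both models share the start and the stop codon.

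The annotated end of Hspa5-201 lies 1016 bases beyond that of Hspa5-202. All 70 reads on unannotated models of the gene in replicate 1 and all 48 in replicate 2 were given the nearer end, at base 34776531. Incomplete matches of 7 exons had 12 and 5 reads, of 6 exons 9 and 3, and of 4 exons 9 and 8. A stretch of the last exon had 28 reads in replicate 1, as a genomic model of 917 bases, and 23 in replicate 2, as an incomplete match of 981 bases. The same stretch thus carried a different class in each library, and neither class counts as annotated.

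**Figure D4:**
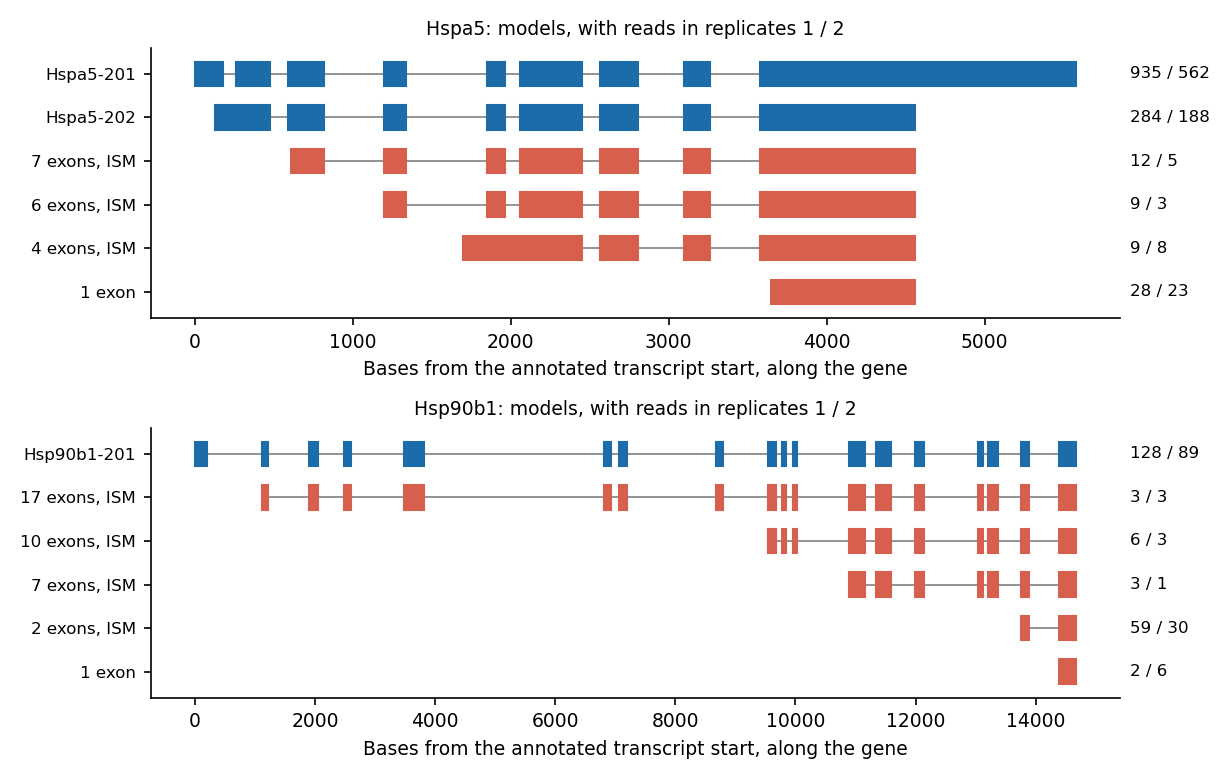
Transcript models of Hspa5 (top) and Hsp90b1 (bottom) drawn to scale along the gene, in bases from the annotated transcript start, with exons as boxes, introns as lines and the reads in replicates 1 / 2 at the right. Annotated models are blue and other models red. The 2-exon model of Hsp90b1 has 59 and 30 reads, and the 1-exon model of Hspa5 is drawn as in replicate 1. In replicate 1, the 17-exon count of Hsp90b1 joins a model of 2622 bases (2 reads) and one of 3325 bases (1 read).

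Hyou1 spread its reads over different first exons. Its models leave the first exon at different splice donors, all upstream of the start codon at base 44380520, and then join the same second exon. Of the 43 reads in replicate 1 and 36 in replicate 2 that were long enough to show the donor, the donor of Hyou1-204 (chr9:44379937) had 21 and 14 reads, or 48.8% (34.6 to 63.2%) and 38.9% (24.8 to 55.1%). The donor of Hyou1-201 (chr9:44379595) had 18 and 16 reads, or 41.9% (28.4 to 56.7%) and 44.4% (29.5 to 60.4%). The donor of Hyou1-206 (chr9:44379741) had 3 and 5 reads, and a donor at chr9:44379676, used by none of these 3 models, had 1 read in each. The leading donor differed between the libraries, and the intervals of both donors overlapped. Use of Hyou1-204 among annotated models was 51.2% in replicate 1 and 42.9% in replicate 2, and this did not pass the test (Fisher's exact test, adjusted p of 1).

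**Figure D5:**
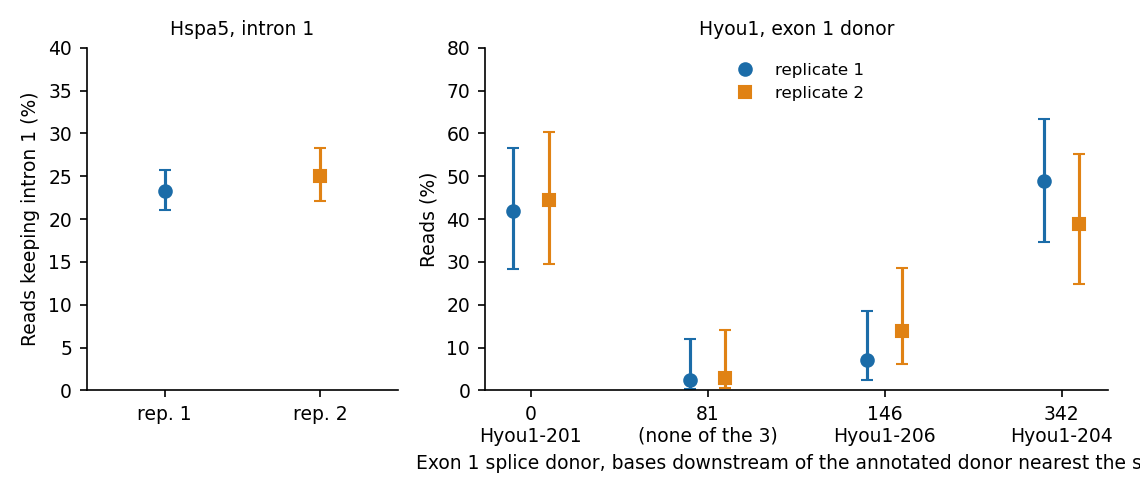
Share of reads that keep the first intron of Hspa5 (left) and share of reads by exon 1 donor of Hyou1 (right, donors by distance from that of Hyou1-201), in percent with 95% Wilson intervals, for replicate 1 (circles) and replicate 2 (squares). The intron is kept in 23.3% and 25.0% of reads, and the donors at 0 and 342 bases take most Hyou1 reads.

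The other members had a single leading model. P4hb-201 had 298 reads in replicate 1 and 209 in replicate 2, Pdia6-201 had 156 and 113, Pdia3-201 had 121 and 90, and Pdia4-201 had 74 and 45, and each was the only annotated model of its gene with reads. Canx-201 had 118 and 88 reads, beside Canx-205 with 2 and 5 and Canx-202 with 1 and 2. Calr-201 had 46 and 32 reads, beside 2 and 4 of the shorter Calr-204. The share of Calr-201 was 95.8% (86.0 to 98.8%) in replicate 1 and 88.9% (74.7 to 95.6%) in replicate 2, and did not pass Fisher's exact test (adjusted p of 1).

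Unannotated splicing of these genes was rare and mostly seen in single reads. NIC and NNC models numbered 23 in replicate 1 and 36 in replicate 2, of which 19 and 35 had 1 read, and 6 intron chains were found in both libraries. The chain with the most reads had 4 in replicate 1 and 1 in replicate 2, in Hsp90b1, and moved an end of 1 intron (chr10:86703600-86704293) by 2 bases. The shared chain of Hspa5 (3 and 1 reads) moved an intron end by 4 bases and that of Pdia3 (3 and 1) by 2 bases. Of 21 unannotated introns in replicate 1 and 28 in replicate 2, 16 and 22 had both ends within 10 bases of annotated ones. The shared chain of Canx (1 read in each library) lay farther off, with an intron end 36 bases from the annotated one (chr11:50311785-50325528).

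Few reads came from other genes at these places. On the opposite strand, 1810014B01Rik overlaps Hsp90b1 and had 12 reads in replicate 1 and 9 in replicate 2, and Catsper2 overlaps Pdia3 and had 5 and 1. Unannotated genes on the opposite strand of 6 members had 20 and 16 reads in all. No transcript of another place matched a member at 95% identity or more over at least 80% of its length, and the small RNA gene Gm25745, which did, lies within Hsp90b1 and had 0 reads.

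Outside the compartment, the cytosolic Hspa8 and Hsp90ab1 were read more often than Hspa5 and Hsp90b1. Hspa8, the constitutive cytosolic Hsp70, averaged 1689 ± 240 CPM (SD, n = 2), and Hspa9, its mitochondrial relative, 919 ± 44.4 CPM. Of the reads of Hspa5 and Hspa8 together, Hspa5 took 44.7% (95% Wilson interval 42.9 to 46.5%) in replicate 1 and 42.6% (40.4 to 44.9%) in replicate 2. Hsp90ab1, the constitutive cytosolic Hsp90, averaged 1379 ± 74.1 CPM, and Hsp90b1 took 14.6% (12.9 to 16.5%) and 13.2% (11.3 to 15.4%) of the reads of this pair. Not all pairs ran this way. With Hsp90aa1, Hsp90b1 took 73.9% (68.5 to 78.7%) in replicate 1 and 69.8% (63.2 to 75.6%) in replicate 2. With Hspa9, Hspa5 took 62.9% (60.7 to 64.9%) and 54.3% (51.7 to 56.8%). These are shares of reads, not per length. Of the 13 relatives 13 were tested and 1, Hspa8, passed without the fold minimum, higher in replicate 1 (log2 ratio 0.29, exact binomial test, adjusted p = 7.11e-05). Over all genes tested, 0.75% were higher in replicate 1 in this way. The inducible Hspa1a had 7 and 6 reads.

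Of 44 other folding enzymes and cofactors of the endoplasmic reticulum, 39 were tested. Without the fold minimum 1 was higher in replicate 1 and 0 were lower, compared with 0.75% and 0.396% of all genes tested. The one was Serpinh1, the collagen chaperone HSP47, with 545 CPM in replicate 1 and 370 in replicate 2 (log2 ratio 0.56, exact binomial test, adjusted p = 9.09e-05). It was also the most abundant of the list, followed by Fkbp9, a prolyl isomerase (289 and 284 CPM), and Tmx2, a membrane thioredoxin relative (222 and 243 CPM). The median log2 ratio of the list was 0.12. Dnajb11, a J-protein that partners with BiP, had 134 CPM in both libraries. Of the 17 genes of the lectin cycle 14 were tested and 0 passed, with a median log2 ratio of -0.13. Lman2 (203 and 220 CPM) and Lman1 (121 and 138 CPM), cargo lectins of the secretory path, led this list before Prkcsh (62.8 and 69.2 CPM), a glucosidase subunit.

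Of 18 genes of the unfolded protein response 13 were tested and 0 passed, with a median log2 ratio of 0.03. Xbp1, a transcription factor whose mRNA is cut by the sensor Ern1, had 164 reads in replicate 1 and 105 in replicate 2, or 191 and 148 CPM, the highest of the list. No model of Xbp1 held the intron of 26 bases that this cut removes. GENCODE M21 holds no such intron for the gene, and whether so short a gap would be given as an intron in these files was not tested. Ppp1r15a (45.4 and 59.3 CPM), a phosphatase subunit, and Atf6b (46.6 and 55.1 CPM), a relative of Atf6, came next. Atf4 had 26 and 24 reads, the sensor Atf6 29 and 20, and the stress-induced Ddit3 25 and 16. The sensors Ern1 (5 and 3 reads) and Eif2ak3 (5 and 5) were near the floor, as 0 reads allow 3.49 and 4.24 CPM.

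Of 17 genes of the degradation path of the endoplasmic reticulum 16 were tested and 0 passed, with a median log2 ratio of -0.05. Vcp, the ATPase that extracts misfolded proteins, had 559 CPM in replicate 1 and 554 in replicate 2, and Herpud1, a ligase cofactor, had 300.3 and 318. In the calcium store of the sarcoplasmic reticulum, 12 of 15 genes were tested. Without the fold minimum 2 were higher in replicate 1 and 1 was lower, all by less than 2-fold. Over all genes tested, 0.75% were higher and 0.396% lower. The test covers counting error only, so that small differences pass in genes with many reads, such as Atp2a2 with 8651 and 8700. The 3 most abundant were Atp2a2, the calcium pump (10069 and 12292 CPM, log2 ratio -0.29, exact binomial test, adjusted p = 5.18e-36), Pln, its inhibitor (7556 and 6612 CPM, adjusted p = 1.97e-09), and Srl (2059 and 2191 CPM). Hrc, a calcium-binding protein, was the other gene that passed (2292 and 1712 CPM, adjusted p = 8.77e-13). Calr took 6.02% (95% Wilson interval 4.74 to 7.63%) in replicate 1 and 4.81% (3.57 to 6.43%) in replicate 2 of the reads of Calr and Casq2, the cardiac calsequestrin that buffers calcium in the store.

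The exact ERSE of the chaperone start regions was also found in start windows of 2 of 34 other folding enzymes and cofactors (Creld2 and Dnajc3), 1 of 14 genes of the lectin cycle (Calr4) and 2 of 13 of the degradation path (Derl3 and Syvn1). It was found in 0 of 15 genes of the unfolded protein response, 0 of 9 of the calcium store and 0 of 9 of the cytosolic and mitochondrial relatives. Creld2 had 64.0 and 42.4 CPM and Dnajc3, a J-protein that binds BiP, 97.8 and 79.1 CPM, while Derl3 had 1 and 0 reads and Calr4 0 and 1.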

How the data were processed

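The authors deposited, per the file headers, whole-number counts of long reads per transcript model, not normalized, with 1 table and 1 model annotation for each library (mm10, GENCODE M21). Exon numbers, lengths and model coordinates came from these deposited files. For the aligner, software versions and filters, the sources used here give nothing. A gene's count was the sum over its models, and CPM divides it by the reads on annotated genes, without spike-ins. A two-sided exact binomial test (scipy 1.17.1) set each gene of 10 or more reads against the library totals. Calls needed a Benjamini-Hochberg adjusted p under 0.05 and a 2-fold difference. Log2 ratios are replicate 1 over replicate 2 with 0.5 reads added. Isoform use (20 or more annotated-model reads per library, leading share under 95%) and shares on annotated models (20 or more reads per library) used Fisher's exact test. Tests were checked on simulated counts that held counting error only, so the check does not cover other variation between libraries. edgeR 4.0.16 and DESeq2 1.42.0 gave alternatives, and blastn 2.17.0 searched for near-identical copies. Floors of a count of 0 used 3 reads. Named genes were the members, the 3 highest of each related list and any gene that passed there, 6 genes of the unfolded protein response, the 3 nearest in level to the highest and lowest member, and overlapping genes with reads. Hspa1a, Hspa9, Hsp90ab1, Hsp90aa1, Dnajb11, Casq2, Dnajc3, Creld2, Derl3 and Calr4 were named for comparison after their values were seen. Members and lists were chosen with earlier results of these data known. An item that the rule would name is not reported here.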

Additional observations from a re-analysis of the deposited data

How the results depend on the processing

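No paired analysis was possible because the study held 1 group. The count of 30 genes called between the libraries became 15 on annotated models only, 107 with no fold minimum, and 12 and 4 in edgeR's exact test with preset variations of 0.1 and 0.2. No member was called under any setting but the absence of a fold minimum, where Hspa5 passed. Its log2 ratio stayed at 0.41 under both preset variations, with an adjusted p of 1. The 6 genes whose share on annotated models differed became 57 without the genomic models and 112 with incomplete matches counted as annotated, none of them a member. The log2 ratio of Canx was -0.02 and turned to 0.0234 with TMM factors, 0.0584 with DESeq2 size factors and 0.0618 on annotated models only. That of Hyou1 was -0.0026 and turned to 0.0404, 0.0755 and 0.257 under these settings, and to 0.00038 under either preset variation. The cause of these changes was not tested, and neither gene was called. The summed level of the 9 genes ranged from 2313 CPM without replicate 1 to 2840 CPM without replicate 2. On annotated models only, the mean level of Hsp90b1 was 137 CPM, against 223 CPM with all models, with place 5 among the members, against 3, and that of Hyou1 43.6 against 59.4 CPM. Depth limits the ratios between libraries, whose intervals reach past 1.5-fold for Hsp90b1, Pdia4, Calr and Hyou1. The tests between libraries need both libraries and were not run without either.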
